A study of Mus musculus with 6 samples.

Results

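Plau, Plat, Plaur, Serpine2 and Serpinb2 encode the proteins that decide where plasminogen is turned into plasmin: its activators, the cell-surface receptor of one of them, and serpins that block them. They were followed here in pancreatic tumour cells of mice with and without Msi1. Members were the probe sets that the array platform's annotation assigned to only one of these 5 symbols. Such probe sets existed for 4 of the 5 genes, 6 probe sets in all, out of 18193 genes and 45037 probe sets tested. These were 2 probe sets each for Plau and Plat and 1 each for Plaur and Serpinb2. Serpine2, a secreted serpin also called protease nexin 1, was not analysed here. For each gene the probe set with the highest mean over the 6 arrays stands for the gene.

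The RNA came from tumour cells of C57BL/6 mice aged 11 weeks, and all 6 samples carry the same tumour alleles, p53f/f and ptf1a-Cre among them. In this kind of model Cre, expressed from the locus of the pancreatic factor Ptf1a, acts on a floxed p53 gene (f/f) in the pancreatic lineage. In 3 samples the Msi1 genotype is wt, called wild-type here for short, and in 3 it is Msi1 -/-, called Msi1-null. Msi1 encodes Musashi 1, a protein that binds RNA. Which cells lack Msi1 in the Msi1-null animals is not given in the labels used here. The labels give each sample its own mouse code but do not say in words that each is a separate animal, so p-values measure only the spread between these samples, which may be technical. The comparison asks which transcripts differ between such tumours with and without Msi1. One Affymetrix array was run per sample, and the small number of arrays limits the precision.

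The arrays were similar in level, with median intensities between 159 and 164, and 1 array stood apart in sex-linked transcripts. Xist read 6226 in wild-type replicate 3 and 387 or less in the other 5 arrays, while the Y-linked Eif2s3y read 88.2 there and at least 716 elsewhere. The members' differences and the likeness of profiles are given with and without it. The brightest Msi1 probe set read 144, 150.4 and 257 in wild-type and 141, 168 and 127 in Msi1-null tumours, near the array background given next, and how it lies relative to the deleted part was not known, so it does not check the genotype. Array background was set at the 95th percentile of 79 sensory receptor probe sets, and lay between 163 and 192 by array. For the labelled cell type, the epithelial keratin genes Krt18 and Krt19 were bright, at 8682 or more and 6174 or more in all 6 arrays. Markers of other cells were bright too: the fibroblast gene Col1a2 read 11888 or more and the macrophage and monocyte gene Lyz2 10545 or more in all 6 arrays. The keratin values therefore do not show that the RNA came from epithelial cells alone. No deposited value was 0. Acinar markers summed to intensities of 38516 to 62143 in wild-type and 12941 to 37404 in Msi1-null tumours, with lower means for 10 of 10 genes. T and NK cell markers summed to 1256 to 1544 and to 1571 to 2150, with higher means for 8 of 8. Several of these lay near background: Cd2, Nkg7 and Klrd1 were above it in 1 of 6 arrays and Cd3g in 3. Cd3d and Cd8a were above it in 5 arrays, and Cd3e and Cd4 in all 6.

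Plasminogen is a blood-borne zymogen that plasminogen activators cut into plasmin, a broad protease that dissolves fibrin and opens the matrix around cells. Urokinase, the product of Plau, works mainly at the cell surface, held there by its receptor from Plaur, while tissue plasminogen activator, from Plat, works mainly on fibrin. Serpinb2, known as plasminogen activator inhibitor 2, blocks both activators and is largely kept inside the cell. In pancreatic cancer the system is studied for its place in invasion.

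Promoter sequences from RefSeq (GRCm38.p6) were held for Plaur and Serpinb2, 2 of the 4 measured genes, and are shown because AP-1, a pair of Fos and Jun family proteins, is a textbook regulator of both genes and its subunits were measured on the same arrays. Each sequence is the 250 bases before an annotated start, on the plus strand, inside the span of its gene's record. Capitals mark matches to the AP-1 motif TGANTCA and to TATAAA.
Plaur, chr7:24462233-24462482: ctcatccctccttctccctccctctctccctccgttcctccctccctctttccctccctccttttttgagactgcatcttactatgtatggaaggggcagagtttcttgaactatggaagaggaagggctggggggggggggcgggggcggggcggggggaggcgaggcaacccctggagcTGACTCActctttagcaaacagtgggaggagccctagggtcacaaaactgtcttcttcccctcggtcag
Serpinb2, chr1:107511173-107511422: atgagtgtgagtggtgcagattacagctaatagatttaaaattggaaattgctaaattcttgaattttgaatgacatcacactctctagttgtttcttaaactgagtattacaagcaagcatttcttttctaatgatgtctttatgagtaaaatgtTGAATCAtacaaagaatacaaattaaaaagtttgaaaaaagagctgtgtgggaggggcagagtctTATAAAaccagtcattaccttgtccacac
Both windows held an AP-1 match, TGACTCA beginning 69 bases before the Plaur start and TGAATCA beginning 94 bases before the Serpinb2 start. On both strands, TGANTCA was found in 6.75% of the 32851 promoter windows of this length in the table. The windows differed otherwise. Serpinb2 had TATAAA at 29 bases before its start, a motif of 12.4% of windows, no GGGCGG, and a GC content of 32.4%. Plaur had no TATAAA, 3 copies of GGGCGG, a motif of 32.7% of windows, the last 2 of which share a base, 1 AGGAAG of the ETS type (29.5% of windows), and a GC content of 59.6%. Neither window held TGACGTCA or CGGAAG, which 1.55% and 13.6% of windows hold. A second RefSeq start of Serpinb2 lies downstream, and its window overlaps the one shown and holds the same pair of matches. These are matches of letters, and binding was not measured.

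Plau, which encodes urokinase, had lower values in the Msi1-null tumours on both of its probe sets, but no probe set on the arrays passed the test. At 1422139_at its intensity was 354, 420.2 and 378 in wild-type replicates 1 to 3, and 304, 199 and 278 in Msi1-null replicates 1 to 3. Every Msi1-null array lay below every wild-type array, and Msi1-null replicate 2 was the lowest of the 6. Means were 384 ± 33.5 in wild-type and 261 ± 54.8 in Msi1-null tumours (SD, n = 3), a 1.49-fold higher value in wild-type and a log2 difference, Msi1-null minus wild-type, of -0.58 ± 0.16 (SE, 95% interval -0.96 to -0.20). All 6 values stood above the array background. The unadjusted p was 0.00873 and the adjusted p 0.9997 (limma, Benjamini-Hochberg), and the exact two-sided permutation p was 0.1, the smallest that 3 against 3 arrays allow. Of all probe sets tested, 0% had an adjusted p under 0.05 (limma), 1355 or 3.01% had an unadjusted p under 0.05, and 1.55% had one in the lower direction. Groups without overlap, lower in Msi1-null tumours, were found at 3.71% of probe sets. In bulk RNA of this kind, fewer cells of a type and less RNA per cell cannot be told apart.

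The dimmer Plau probe set gave a smaller difference in the same direction. At 1422138_at the values were 162, 151 and 162 in wild-type and 144, 119 and 139.5 in Msi1-null tumours. The groups again did not overlap, and Msi1-null replicate 2 was again the lowest. The log2 difference was -0.24 ± 0.08 (SE), with an unadjusted p of 0.0193 and an adjusted p of 0.9997 (limma). All 6 values lay below the array background, where differences can be compressed. Whether compression made this difference the smaller one was not tested. As a group, the Msi1-null arrays also had lower acinar marker sums and higher T and NK cell marker sums, the latter partly near background. Inside that group the acinar sum was lowest in replicate 1, at 12941, where Plau was the highest of the group, at 304. The T and NK cell sum was highest in replicate 2, at 2150, where Plau was the lowest. The part of these sums in the result was not tested. Fibroblasts can make urokinase, and of their 10 markers 5 had higher and 5 lower means, with a summed intensity of 52681 to 54323 in wild-type and 43620.0 to 64651 in Msi1-null tumours. Macrophage and monocyte markers summed to 41740.0 to 51207 and to 35546 to 61986, with 8 of 11 higher. The lowest sums of both lists were in Msi1-null replicate 2, the array lowest in Plau. The highest sums of both were in Msi1-null replicate 1, where Plau, at 304, was also below every wild-type array. Other lists leaned by genotype too, with sums that overlapped between the groups. Means were higher for 6 of 6 smooth muscle and pericyte, 8 of 9 endothelial and 7 of 8 neutrophil markers. They were also higher for 4 of 5 B and plasma cell markers, and lower for 5 of 5 adipocyte markers. The part of all these marker levels in the Plau values was not tested. With Msi1-null replicate 2 left out the Plau log2 difference was -0.40. Leaving out any other single array gave values from -0.70 to -0.51, with -0.59 without wild-type replicate 3.

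**Figure D1:**
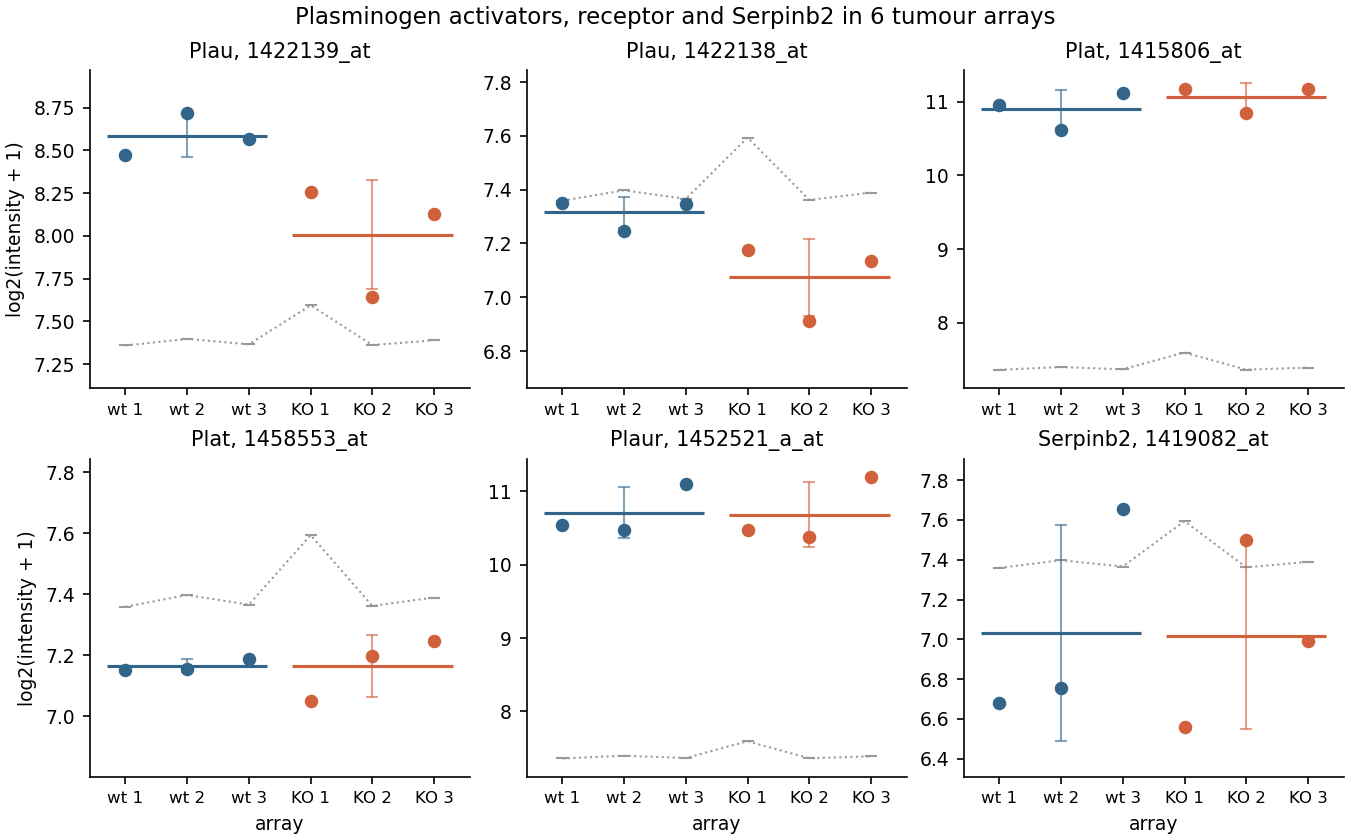
Each panel plots 1 probe set: log2(intensity + 1) on the y axis, with its own range, against the 3 wild-type (wt, blue) and 3 Msi1-null (KO, orange) arrays; horizontal bars are group means, error bars the SD (n = 3), and grey dotted lines the array background. Both Plau probe sets separate the groups, while Plat, Plaur and Serpinb2 overlap, and Serpinb2 rises above background in wild-type replicate 3 and Msi1-null replicate 2.

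Plat, the gene of tissue plasminogen activator, was bright in every array and did not separate the genotypes. Its intensity at 1415806_at was 1992, 1567 and 2225 in wild-type and 2304, 1842 and 2316 in Msi1-null replicates 1 to 3. The groups overlapped, with wild-type replicate 2 the lowest and Msi1-null replicates 1 and 3 the highest. Means were 1928 ± 334 and 2154 ± 270.1 (SD, n = 3), a log2 difference of 0.17 ± 0.16 (SE, 95% interval -0.21 to 0.54; exact two-sided permutation p = 0.5). Without wild-type replicate 2 the difference was 0.02, and without wild-type replicate 3 it was 0.28. The other Plat probe set, 1458553_at, lay below the array background in all 6 arrays, between 132 and 151, and differed by -0.00057 ± 0.064 (SE, log2).

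Plaur, the gene of the urokinase receptor, stood well above background in all 6 arrays and differed more between arrays of a genotype than between the genotypes' means. At 1452521_a_at it read 1491, 1422 and 2204 in wild-type and 1419.6, 1333 and 2344 in Msi1-null replicates 1 to 3. Replicate 3 of each group was high and the other 4 arrays lay close together. Means were 1706 ± 432 and 1699 ± 560.2 (SD, n = 3), with a log2 difference of -0.03 ± 0.26 (SE, 95% interval -0.62 to 0.57; exact two-sided permutation p = 0.8). Its sign depended on single arrays: the difference was 0.17 without wild-type replicate 3 and -0.28 without Msi1-null replicate 3.

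The arrays high in Plaur were also high in 2 other genes of the lists used here, chosen after their values were seen. Fosl1, which encodes the Fos family AP-1 subunit Fra-1, read 154, 163 and 321 in wild-type and 139, 185 and 383 in Msi1-null tumours. This Fosl1 probe set was above background in only 3 of 6 arrays, wild-type replicate 3 and Msi1-null replicates 2 and 3. F3, the gene of tissue factor, which starts coagulation, read 978, 748 and 1224 in wild-type and 852, 605 and 1883 in Msi1-null tumours. Replicate 3 was the highest of its group for all 3 genes, in both genotypes. The second Fosl1 probe set, 1417488_at, was dim, at 92.0 to 112, with replicate 3 again the highest of each group. Wild-type replicate 3 is the array that stood apart in Xist, and without it Msi1-null replicate 3 is the only array that stands high in the 3 genes. Replicate numbers name samples only, and with 6 arrays this is a description. The Plaur promoter's TGACTCA, shown above, is a match to the motif of the factors to which Fra-1 belongs, and its occupancy was not measured.

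Serpinb2, the inhibitor gene, was dim, and 2 of 6 arrays lay above background. Its intensity at 1419082_at was 102, 107 and 201 in wild-type and 93.3, 179.9 and 126 in Msi1-null replicates 1 to 3. Wild-type replicate 3, the array that stood apart in Xist, and Msi1-null replicate 2 were the 2 high ones, and the groups overlapped in part. Means were 137 ± 55.7 and 133 ± 43.7 (SD, n = 3), a log2 difference of -0.01 ± 0.31 (SE, 95% interval -0.73 to 0.70; exact two-sided permutation p = 1). Without wild-type replicate 3 the difference was 0.30, and without Msi1-null replicate 2 it was -0.26. Mesothelial markers had higher means for 3 of 6 genes and lower for 3, and their sums overlapped, at 3331 to 5950 in wild-type and 1899 to 4554 in Msi1-null tumours.

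**Figure D2:**
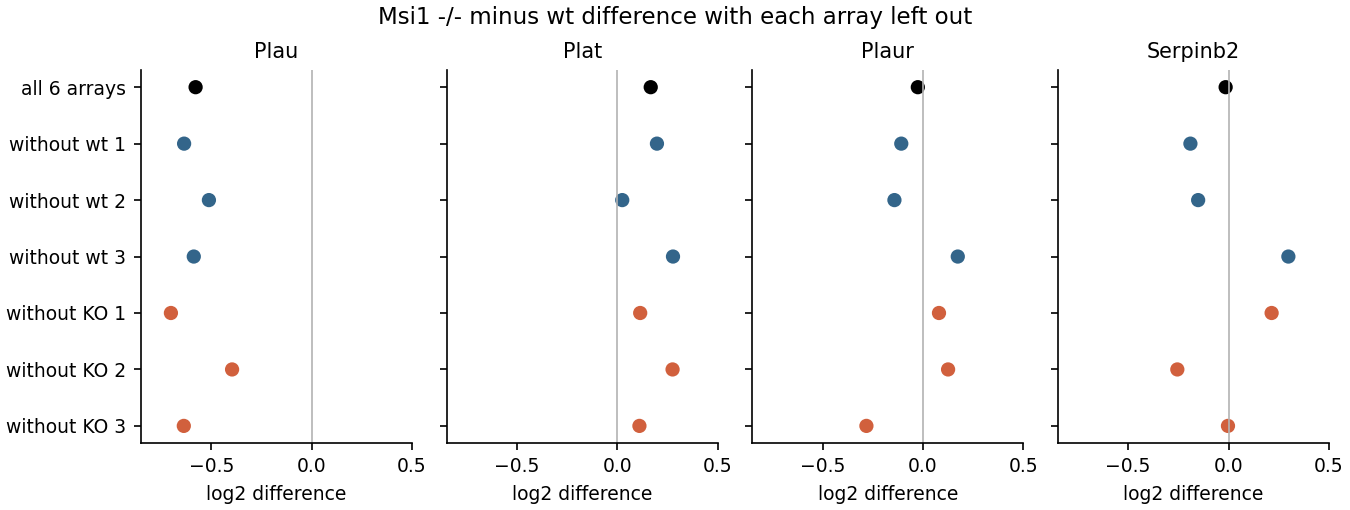
The x axis is the log2 difference, Msi1-null minus wild-type, of each of the 4 genes with all 6 arrays (black) and with 1 wild-type (blue) or 1 Msi1-null (orange) array left out. Plau stays between -0.70 and -0.40, Plat between 0.02 and 0.28, and Plaur and Serpinb2 fall on both sides of 0.

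Among the 4 measured genes 1 was without overlap between the groups, in the lower direction, against 4.28% of all 18193 genes taken by their brightest probe set. The median log2 difference of the 4 was -0.02, against 0.00059 over all genes. The receptor and Serpinb2 were the more variable genes, with SEs of 0.26 and 0.31 against a median SE of 0.10 over all genes.

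Genes whose array profile came closest to a member's were sought for the 2 members that spanned at least 1 log2 unit over the 6 arrays, among 9614 genes with a mean log2 of at least 8. Likeness was the root mean square distance between centred log2 values over 6 arrays, so 0 is an identical profile. Closest to Plau, whose own root mean square deviation was 0.35, were Trem1, a receptor of myeloid cells, at 0.13, Tmeff1, a membrane protein with EGF-like and follistatin-like domains, at 0.14, and Cbs, cystathionine beta-synthase, at 0.14. Their log2 differences were -0.53, -0.41 and -0.37. A share of that likeness is the genotype difference itself, which the measure includes. Without wild-type replicate 3, a setting chosen after seeing the data, Trem1 was still the closest, at 0.10 over 5 arrays, while Tmeff1 and Cbs ranked 8 and 10 of 9614. For Trem1 and Tmeff1 the second probe set differed less, by -0.04 and -0.08, and for Cbs by -0.20. That of Trem1 lay below background in all 6 arrays, and those of Tmeff1 and Cbs were above it in 1 and 4 arrays. Differences can be compressed at such levels.

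Closest to Serpinb2, with a deviation of 0.41, were Egln3, a prolyl hydroxylase that acts on HIF, at 0.15, Ero1a, an oxidase of the endoplasmic reticulum, at 0.16, and Stc1, the secreted glycoprotein stanniocalcin 1, at 0.16. Egln3 read 280.4, 321 and 542 in wild-type and 244, 486 and 451 in Msi1-null replicates 1 to 3. Like Serpinb2 it was highest in wild-type replicate 3 and, among Msi1-null tumours, in replicate 2. Ero1a read 479, 606 and 1088 in wild-type and 597, 846 and 755 in Msi1-null tumours, in the same order within each group as Egln3. Unlike Serpinb2, these 3 genes were above background in all 6 arrays at their brightest probe sets. Their genotype differences there were 0.04, 0.09 and -0.22 on the log2 scale. Other probe sets differed by 0.10 for Egln3 and by -0.02 and 0.10 for Ero1a. The second Stc1 probe set, below background in all 6 arrays, differed by 0.0008. The place of these 3 genes closest to Serpinb2 rested on wild-type replicate 3. Without it Egln3, Ero1a and Stc1 ranked 145, 218 and 184 of 9614, at distances of 0.16, 0.18 and 0.17, and Serpinb2 spanned 0.94 log2 units.

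**Figure D3:**
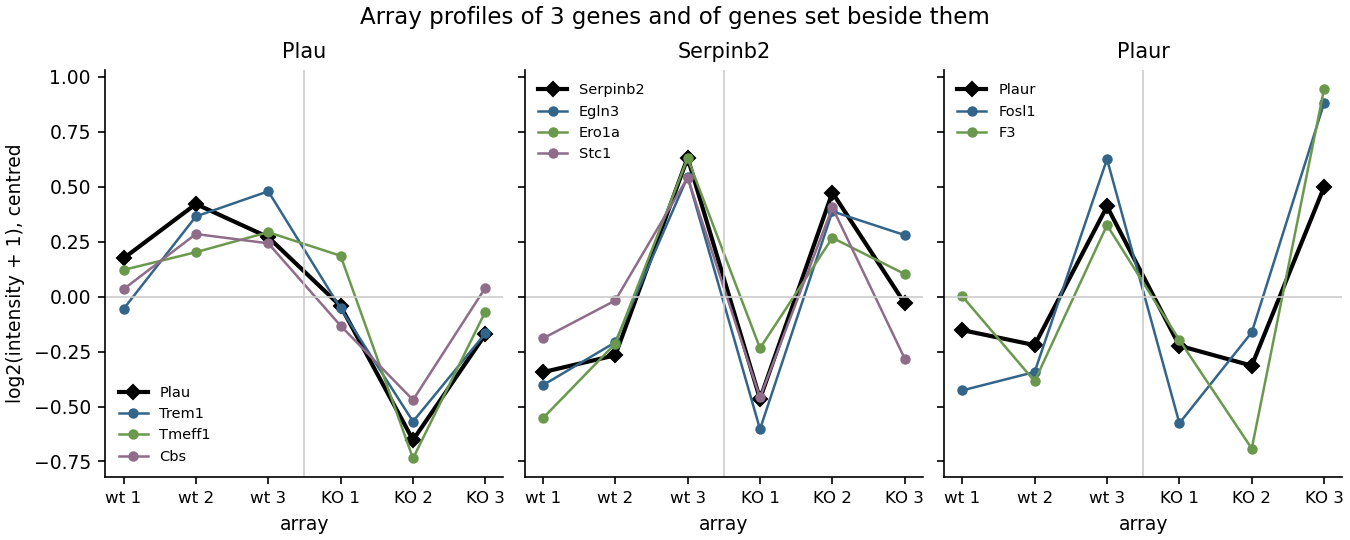
The y axis is log2(intensity + 1) minus the gene's mean over the 6 arrays on the x axis, wild-type (wt) left and Msi1-null (KO) right of the grey line, and coloured lines only join the points of a gene. Plau is shown with Trem1, Tmeff1 and Cbs, Serpinb2 with Egln3, Ero1a and Stc1, and Plaur with Fosl1 and F3, which are highest in replicate 3 of each genotype.

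The wider plasminogen system was described with 76 further genes in 6 lists by role, 70 of which had a probe set of their own. Of the 70, 0 passed the test in either direction (adjusted p under 0.05, limma), and 4 had an unadjusted p under 0.05, all lower in Msi1-null tumours, or 5.71% against 1.85% of all genes in that direction. Groups without overlap were lower for 3 genes, 4.29% of the 70, and higher for 1, 1.43%, against 4.28% and 4.0% of all genes, so these shares are near or below the background. Means were higher in Msi1-null tumours for 29 of 70, 41.4%, against 50.2% of all genes, and the median log2 difference was -0.01.

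Plg and Plgrkt overlapped between the genotypes. Plg, the gene of plasminogen, which is made mainly in the liver, lay below background in all 6 arrays at 107 to 121. Its log2 difference was 0.04 ± 0.06 (SE), and a difference could be missed at such a level. Plgrkt, which encodes a membrane receptor of plasminogen, read 934, 830.3 and 846 in wild-type and 938, 694 and 821 in Msi1-null tumours, a log2 difference of -0.10 ± 0.14 (SE). St14, the gene of matriptase, an epithelial surface protease that can activate urokinase, was the 1 gene of 12 in this list without overlap. It read 1759, 1574 and 1411 in wild-type and 1151, 1135 and 1242 in Msi1-null tumours. Every Msi1-null value was below every wild-type value, a log2 difference of -0.42 ± 0.12 (SE; unadjusted p = 0.00794, adjusted p = 0.9997, limma; exact two-sided permutation p = 0.1). Tumour and ductal epithelial markers as a whole had lower means for 6 of 10 genes, with sums of 56508 to 65649 in wild-type and 45186 to 71511 in Msi1-null tumours.

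Among 9 measured inhibitors, 7 had lower and 2 higher means. Serpini1, the gene of neuroserpin, an inhibitor of tissue plasminogen activator, was the 1 without overlap, at 489, 392 and 365 in wild-type and 312, 347 and 309.9 in Msi1-null tumours. Its log2 difference was -0.35 ± 0.13 (SE; unadjusted p = 0.0263, adjusted p = 0.9997, limma), and its other 2 probe sets differed by -0.24 and -0.07. Without wild-type replicate 1 it was -0.23, a fall in size of over 1.5 times. Clearance and docking receptors had lower means for 12 of 20 genes and none without overlap. Lrp1, an endocytic receptor that clears complexes of urokinase and its inhibitors, had an unadjusted p of 0.0458 (limma), the last of the 4 such genes beside St14, Serpini1 and Fosl2. It read 2501, 2368 and 2122 in wild-type and 1873, 1722 and 2137 in Msi1-null tumours, with Msi1-null replicate 3 inside the wild-type range. Coagulation and fibrin genes had higher means for 8 of 12. Here Fgg, the fibrinogen gamma chain, was the 1 without overlap, at 95.1, 101 and 103 in wild-type and 121, 104 and 106 in Msi1-null tumours, all below background (0.14 ± 0.07, SE; 0.07 without Msi1-null replicate 1).

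Transcription factors known to act on Plau and Plaur had lower means for 7 of 11 genes, with a median log2 difference of -0.10. Fosl2, which encodes the AP-1 subunit Fra-2, was the 1 without overlap: it read 1869, 1781 and 1824 in wild-type and 1546, 1536 and 1461 in Msi1-null tumours. Both groups were tight, and the gap between them was wider than the range within either. The log2 difference was -0.27 ± 0.09 (SE; unadjusted p = 0.0217, adjusted p = 0.9997, limma; exact two-sided permutation p = 0.1), and a dimmer Fosl2 probe set differed by -0.04 ± 0.07 (SE). The other AP-1 genes of the list overlapped between the groups, with log2 differences of -0.29 ± 0.15 for Fos, -0.20 ± 0.13 for Jun, -0.20 ± 0.15 for Junb and, with the opposite sign, 0.10 ± 0.41 for Fosl1 (SE). Ets1 and Ets2, whose proteins bind GGAA elements, differed by 0.11 ± 0.15 and -0.10 ± 0.11 (SE, log2).

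**Figure D4:**
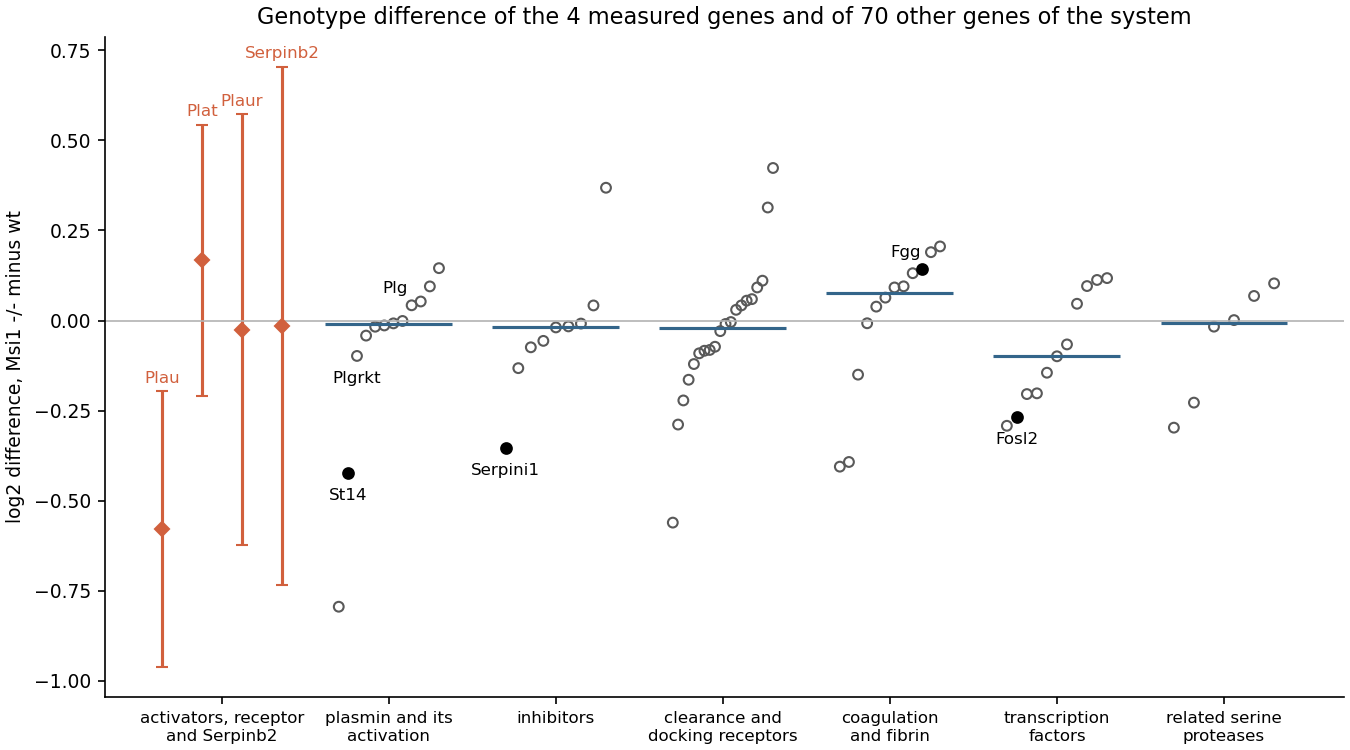
The y axis is the log2 difference, Msi1-null minus wild-type; orange diamonds are the 4 measured genes with 95% intervals, circles the 70 other genes by role, filled where the groups do not overlap, and blue lines the median of each list. Plau lies at -0.58 with an interval below 0, the intervals of Plat, Plaur and Serpinb2 cross 0, and St14, Serpini1, Fosl2 and Fgg are the filled genes.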

How the data were processed

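The authors deposited linear intensities of 45101 probe sets, per the submitters' processing notes made with GCRMA (version and settings not given in the sources used here). Any compression of dim signals at that step shrinks their differences. Control probe sets (64) were left out, and values were analysed as log2(intensity + 1). The added 1 understates changes of dim genes only slightly, as the lowest deposited intensity was 51.2. Gene symbols came from the platform annotation, updated by Entrez identifier through RefSeq. A linear model with genotype as its term was fitted to all 45037 probe sets with limma 3.58.1 in R 4.3.3 (eBayes with trend), with Benjamini-Hochberg adjustment over all and a threshold of 0.05. In 5 simulated runs of this comparison, with 200 changed of 45037 probe sets, it found 95.2% of changes of log2 1, with 13.4 false calls per run. The simulated noise was normal and independent between probe sets, and genes with larger SEs would be found less often. The median SE was 0.21 for the 4 measured members and 0.08 over all probe sets, so the 95.2% does not describe these members. Exact permutation tests used all 20 assignments of arrays.

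One item of the shared genotype is not reported here. The members and lists were chosen with earlier results of these data known. Named were all probe sets of the members, Plg and Plgrkt, up to 3 genes per role list without overlap by smallest unadjusted p, and the 3 genes most like each member in profile, for members spanning 1 log2 unit; Fosl1, F3, Lrp1, Fos, Jun, Junb, Ets1 and Ets2 were chosen after their values were seen. Marker lists covered 13 cell types, and those set beside a result are named there. Alternatives were filters at a mean log2 of 7 and 8, quantile normalization, median centring, a pseudocount of 16, eBayes without trend, weights per array, a block for replicate number, leaving out single arrays, and averaged probe sets.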

Additional observations from a re-analysis of the deposited data

How the results depend on the processing

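Plau kept its lower value under all 15 alternatives tried, with log2 differences from -0.70 to -0.40, the smaller without Msi1-null replicate 2, and no fit brought its adjusted p under 0.05 (limma). Plat kept its sign in 15 of 15. The filters, eBayes without trend and the replicate block cannot change a difference of group means. Those settings bear only on the p-values, so a sign could change only under the other alternatives. The sign of 2 members changed: Plaur was 0.043 and Serpinb2 0.014 with array weights, and leaving out single arrays gave -0.28 to 0.17 and -0.26 to 0.30. Plg was -0.0040 with array weights, and Plgrkt ran from -0.20 to 0.014 over the fits without 1 array. Serpinb2 was removed by the filter at 8, and Plg and Fgg by both filters. The count of probe sets past the threshold was 0 in limma, and from 0 to 1 with each array left out, the 1 without Msi1-null replicate 1. At an unadjusted p under 0.05 it was 1355. With the replicate number as a block 0 probe sets passed and 2120 had an unadjusted p under 0.05. Same-numbered arrays deviated together with correlations of 0.17, -0.09 and 0.28, and not every array correlated best with its own number, so the numbers are not taken as pairs. The cause of these changes was not tested. Signal near background limits Serpinb2 and the second probe sets of Plau and Plat.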

Other observations

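Serine proteases related to the plasma activators, 6 genes, had higher means for 3 and lower for 3 in Msi1-null arrays, and Tmprss4, Tmprss2 and Prss22 had the largest SDs of intensity of the 6 genes inside that genotype. Tmprss4, a membrane-bound protease of epithelial tumours, read 659, 664 and 608 in wild-type and 325, 1132 and 726 in Msi1-null replicates 1 to 3. Tmprss2, a related protease, read 1730, 1001 and 1054 in wild-type and 652, 2236 and 1552 in Msi1-null arrays. Prss22, a tryptase-like serine protease, went another way, at 1536, 2190.4 and 1482 in wild-type and 1982, 908 and 2675 in Msi1-null arrays, lowest in Msi1-null replicate 2. Hgfac, of the list on plasmin and its activation, the activator of hepatocyte growth factor, read 648, 679 and 941 in wild-type and 384, 1328 and 904 in Msi1-null arrays. Tmprss4, Tmprss2 and Hgfac were lowest of the 6 arrays in Msi1-null replicate 1 and highest in replicate 2, the array with the lowest Plau. Islet markers followed the same order: their summed intensity of 5329 for Msi1-null replicate 1 was the smallest of the 6 arrays and that of 13816 for replicate 2 the greatest, against 6686 to 8649 in wild-type. The epithelial marker sum was lowest in Msi1-null replicate 1, at 45186, but highest in replicate 3, at 71511. The part of these marker levels in the values was not tested. These genes were named after their values were seen.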
